A study of Mus musculus with 8 samples.

Results

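The genes described here are those encoding the proteasome, taken as every gene symbol in the cluster marker table of this single-cell study that starts with Psma, Psmb, Psmc, Psmd or Psme followed by a digit. The rule found 31 of the 3903 genes listed, with 119 of the 13337 entries, which is 0.892%. An entry is 1 gene in 1 cell cluster. The mouse annotation holds 45 protein-coding genes that match the rule, so 14 had no entry in any cluster. One of the 31, Psmc3ip, matches by its letters only, since it encodes a partner of a subunit that acts in DNA recombination.

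The cells were preadipocytes of inguinal white adipose tissue from C57BL/6 mice, WT or lacking both Hmgn1 and Hmgn2 (DKO), aged 8 to 12 weeks. HMGN1 and HMGN2 are chromatin proteins that bind nucleosomes. All 4 groups, WT and DKO at day 0 and at day 6 of induced browning, held 2 samples, 8 in all, and the day 6 cells had received insulin, dexamethasone, IBMX, T3 and rosiglitazone. The table pools the cells of all 8 samples in 12 clusters numbered 0 to 11, so it has no value for a sample, genotype or day and no replicate. No test across samples could be made from it, and the depth and cell number behind each value are unknown.

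The proteasome is the protease that degrades proteins tagged with ubiquitin. Its core is a barrel of alpha rings, which gate the entrance, around beta rings, which hold the cutting sites. A regulatory cap of ATPase subunits (Psmc), which unfold the substrate, and non-ATPase subunits (Psmd), which bind and remove ubiquitin, sits on the barrel, and the Psme genes encode other activators of the core. Proteasome activity is known to be needed in brown fat for heat production, where the transcription factor Nfe2l1 maintains the genes of the complex.

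Each entry gives the share of cells in which the transcript was detected, for the cluster and for the remaining cells. A difference of at least 10 percentage points was called. Detection is not adjusted for the RNA captured per cell, which was not analysed here. A gene can therefore be detected in more cells of a cluster while making up a smaller part of their RNA, or the reverse, and every statement below is about detection only. The median over all listed genes of a cluster is given beside that of the members for this reason. As a second scale, the mean transcript number per cell implied by random capture, minus the natural log of the share of cells without the transcript, was compared between a cluster and the other cells as a ratio, called the implied mean ratio.

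Promoter sequence was available for 26 of the 31 members in 29 windows of 300 bases (RefSeq, GRCm38.p6), with none matched for Psmb1, Psmb2, Psmb7, Psmc3 and Psmd7. Each window ran from 250 bases before the start site to 50 bases after it. The core of the antioxidant response element, which Nfe2l1 and related factors bind, was searched as TGANNNNGC on both strands. It was found in 18 of the 29 windows, 62.1%, against 41.3% of all 32851 promoter windows. The count includes Psmc3ip, which is no subunit. For Psma5, Psma7, Psmb8, Psmd8, Psmd13, Psme4 and a window of Psme2, the only match lay across or after the start site. The CCAAT box, also on both strands, was found in 10 windows, 34.5%, against 37.4% of all. A match describes letters and does not show binding. As examples, the 250 bases before the start site are shown for 4 members, 5′ to 3′ on the strand of the gene. Matches to either motif are in capitals, and these 4 stretches do not stand for the other members. They lie at chr7:114276117-114276366 (minus strand, Psma1), chr14:54617996-54618245 (minus, Psmb5), chr11:107479278-107479527 (plus, Psmd12) and chr14:55591022-55591271 (minus, Psme2).
Psma1: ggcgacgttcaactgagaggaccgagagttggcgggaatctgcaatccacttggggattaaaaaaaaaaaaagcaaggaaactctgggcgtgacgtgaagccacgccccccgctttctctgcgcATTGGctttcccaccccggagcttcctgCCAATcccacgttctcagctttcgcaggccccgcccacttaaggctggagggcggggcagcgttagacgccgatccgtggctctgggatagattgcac
Psmb5: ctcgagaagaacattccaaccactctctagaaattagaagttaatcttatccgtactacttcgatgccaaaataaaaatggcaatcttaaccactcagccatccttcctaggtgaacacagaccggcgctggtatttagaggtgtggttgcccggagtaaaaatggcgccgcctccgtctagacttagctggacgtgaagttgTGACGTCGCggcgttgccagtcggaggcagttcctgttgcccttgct
Psmd12: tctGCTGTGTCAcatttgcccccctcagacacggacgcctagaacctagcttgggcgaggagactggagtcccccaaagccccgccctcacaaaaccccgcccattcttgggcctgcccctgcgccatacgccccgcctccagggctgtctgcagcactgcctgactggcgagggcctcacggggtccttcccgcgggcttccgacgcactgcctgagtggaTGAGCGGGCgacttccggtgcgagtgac
Psme2: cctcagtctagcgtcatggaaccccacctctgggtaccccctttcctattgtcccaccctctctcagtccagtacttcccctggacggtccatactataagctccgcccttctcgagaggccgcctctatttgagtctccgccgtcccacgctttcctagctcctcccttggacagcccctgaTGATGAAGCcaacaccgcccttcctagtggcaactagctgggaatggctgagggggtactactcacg
In the bases shown, Psma1, an alpha ring gene, held CCAAT on both strands and no TGANNNNGC, whereas Psmb5, Psmd12 and Psme2 held TGANNNNGC and no CCAAT. Psme2 has another annotated start site, and the 250 bases before it (chr14:55591102-55591351, not shown) held neither motif.

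Proteasome transcripts were detected in most cells. Solved over all cells, the median detection of the 31 members was 68.5%, from 13.4% for Psmc3ip to 86.5% for Psma7, against a median of 47.4% over all listed genes. By class, the medians were 80.9% for 7 alpha ring genes, 80.7% for 6 beta ring genes, 66.4% for 4 ATPases, 67.1% for 9 non-ATPase subunits and 47.7% for 3 activators. Psmb8, the inducible beta subunit of the immunoproteasome, was detected in 23.9%. These shares also depend on how well each transcript is captured, so they do not rank the amounts of the subunits.

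**Figure D1:**
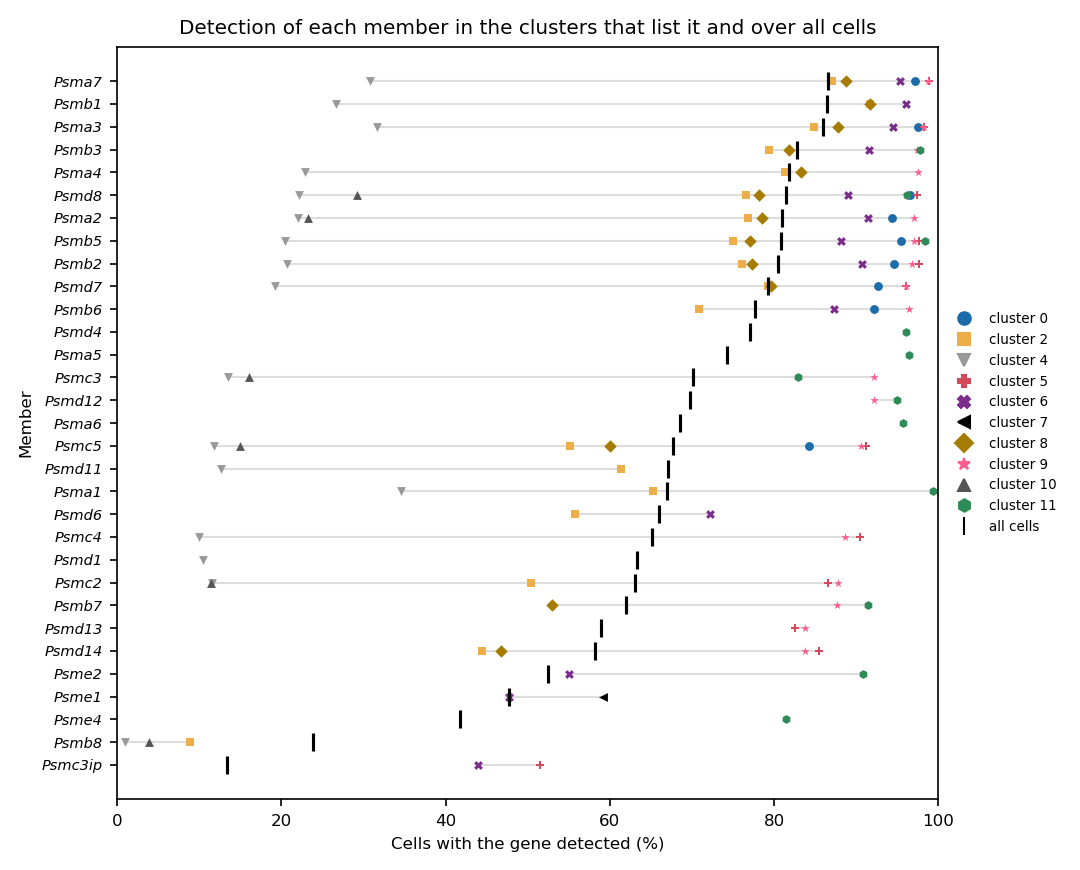
Percent of cells with each member detected (x axis) in every cluster that lists it (symbols) and over all cells (black bars), members ordered by the latter. Cluster 4 holds the lowest value of most members it lists, and detection over all cells runs from 13.4% to 86.5%.

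Members had entries in 10 of the 12 clusters and none in clusters 1 and 3. Over all clusters, 57 of the 119 member entries were called higher, against 40.0% of all entries, and 29 were called lower, against 37.4% of all entries. Every member was called in at least 1 cluster, and 15 were called higher in some clusters and lower in others. The same counts were not taken over all listed genes. A gene is listed only where its level differed, so neither count is read as a trait of the members.

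Cluster 11 was led by the fat storage genes Gpat3, Plin1 and Lipe, and was the smallest cluster, solved as 1.5% of all cells. It listed 12 members and all 12 were called higher, against 44.4% of all its entries. Of these members, 4 were listed in no other cluster. The median difference was 24.1 points, against 6.6 points over all entries, and the median implied mean ratio was 2.53, against 1.34. All 10 adipocyte markers were listed there, and 9 were called higher. Plin1, a lipid droplet coat protein, was detected in 99.8% of its cells and 14.4% of the others. The thermogenic coactivator Ppargc1a was detected in 47.5% and 1.8%. Ucp1 was not listed.

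The proliferating clusters 5 and 9 also detected the members more often. Cluster 9, led by the mitotic genes Cenpa, Hmmr and Cdc20, listed 18 members and all 18 were called higher, against 76.9% of all its entries. Their median difference was 18.9 points, below the 23.9 points over all entries. Cluster 5, led by the replication genes Pclaf, Top2a and Atad2, listed 12 and called all 12 higher, against 72.1%, with a median of 22.3 points against 25.9 over all entries. In cluster 0, led by the contractile genes Myl9 and Cnn2, 9 of 9 were called higher, against 66.0%, with medians of 16.5 and 17.1 points. In these clusters most listed genes were detected more often, members or not.

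Cluster 6 was also led by proliferation genes (Mki67, Pclaf, Top2a). Of all its entries, 51.9% were called higher, a smaller share than in clusters 5 and 9. Cluster 6 listed 13 members, of which 5 were called higher, or 4 without Psmc3ip, which is no subunit. The median over the 13 was 9.5 points, against 10.7 over all entries. The median implied mean ratio was 1.44, under the 1.91 of all entries. In the plot of detection inside and outside the clusters, the entries of cluster 6 fall into an upper and a lower band with few points between them, and all members there but Psmc3ip lie along the lower band although none was detected in fewer cells than outside. Only genes past a log fold change of 0.25 are listed in any cluster, so entries near no change are missing from the plot. The part of this limit in the gap between the bands was not tested. This view of the bands was taken after the data had been seen. Cluster 7 listed 1 member, Psme1, which was called higher, against 59.8% of its entries.

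Members were detected in far fewer cells of cluster 4, which listed 17, all called lower, against 92.8% of all its entries. The median difference was -61.8 points against -47.2, while the median implied mean ratio, 0.111, was slightly above the 0.095 of all entries. Of all entries of cluster 4, 0.82% were called higher, among them Fabp4, detected in 98.5% of its cells against 71.0% outside. In cluster 10, 6 members were listed and all 6 were called lower, against 98.5% of its entries, with medians of -54.2 and -48.4 points and implied mean ratios of 0.14 and 0.0832. Nearly every listed gene was detected less often in these clusters, and the part of the RNA captured per cell in the members' values was not tested.

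The differentiation markers Col5a3 and Serpina3n were both called higher in clusters 2 and 8, and also in cluster 6. Member differences ran from -17.1 to 6.0 points in cluster 2 and from -12.2 to 5.6 points in cluster 8. Cluster 2 listed 18 members, of which 5 were called lower, against 34.5% of its entries, with a median of -5.2 points against -0.5. Cluster 8 listed 13, of which 1, Psmd14, was called lower, against 45.6%, with a median of -2.6 points against -6.2. In cluster 2, 2 of the 18 members were detected in slightly more cells than outside.

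**Figure D2:**
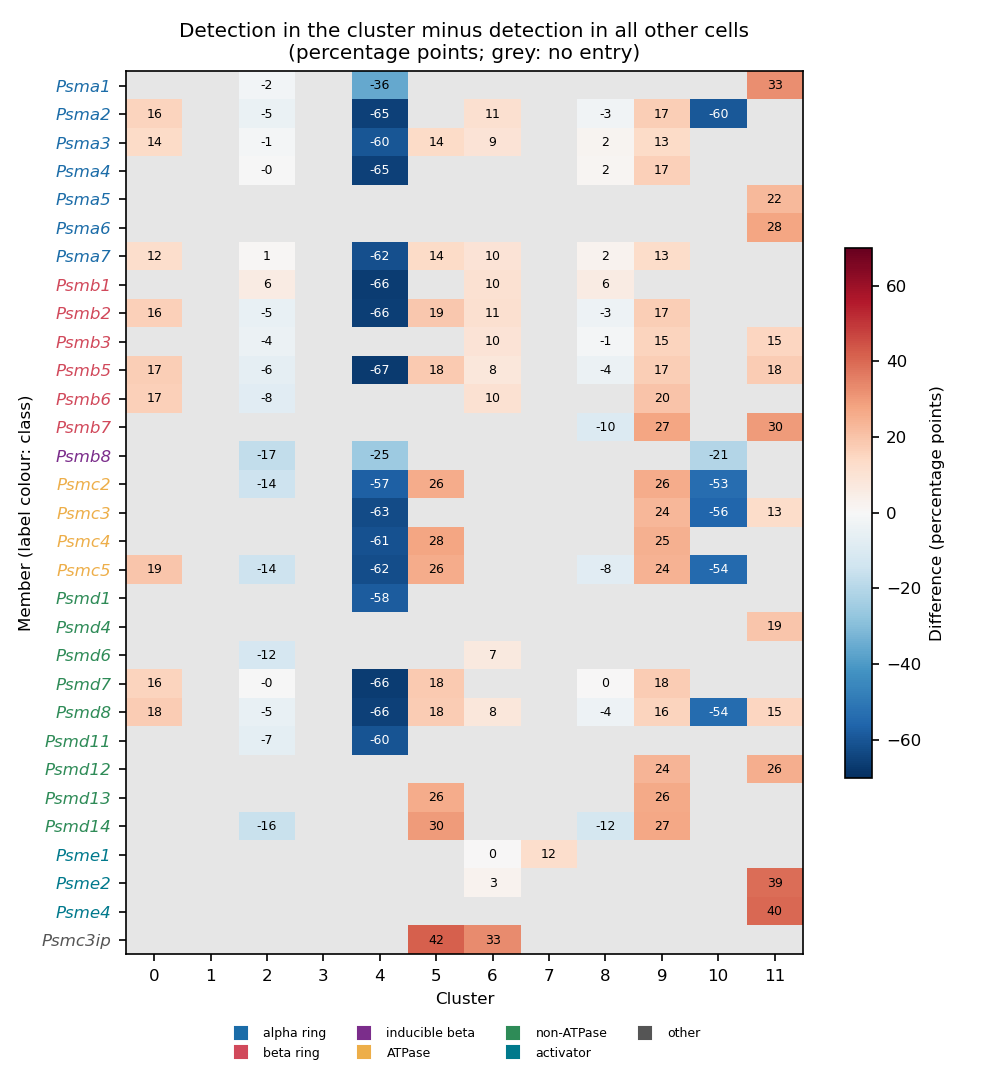
Detection in the cluster minus detection in all other cells, in percentage points, for each member (rows) and cluster (columns), with grey for no entry. Clusters 0, 5, 9 and 11 hold positive differences, clusters 4 and 10 hold negative ones, and the widest is -66.8 points for Psmb5 in cluster 4.

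The alpha ring genes had 30 entries. Psma2 (chromosome 13, 14613240 to 14674236, plus strand) was found in 94.4% of cluster 0 cells and 91.4% of cluster 6, and its detection in cluster 9 was 17.1 points above that of the other cells. It was detected in 76.8% of cluster 2 and 78.5% of cluster 8, and in only 22.0% of cluster 4 and 23.2% of cluster 10. The same order was seen for Psma7 (chromosome 2, 180036374 to 180042433, minus strand), whose detection was 98.9% for cluster 5, 98.7% for cluster 9, 87.0% for cluster 2 and 30.8% for cluster 4.

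Psma1 (chromosome 7, 114264606 to 114276118, minus strand) stood apart from the other members. In cluster 11 it was detected in 99.3% of cells against 66.5% outside, the highest implied mean ratio among the members there, 4.54. That ratio rests on the few cells of this small cluster without the transcript. In cluster 4 it was detected in 34.6% of cells against 70.4% outside, an implied mean ratio of 0.349. Psmc5, detected in 73.6% of cells outside cluster 4, was found in 11.8% of that cluster, and Psmd11, at 72.9% outside, in 12.6%. Psma5 and Psma6 were listed for cluster 11 only, where they were detected in 96.4% and 95.7% of cells, against 73.9% and 68.1% outside.

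Of the beta ring genes, Psmb5 (chromosome 14, 54614119 to 54618022, minus strand), the chymotrypsin-like cutting subunit, had 8 entries. Its detection reached 95.4% in cluster 0 cells, 97.6% for cluster 5 and 98.4% for cluster 11, and in cluster 9 it was 17.3 points above the other cells. Lower shares were found in cluster 6, with 88.1%, cluster 8, with 77.0%, and cluster 2, with 75.0%. Its 20.4% in cluster 4, against 87.2% outside, was the widest negative difference of any member.

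The caspase-like subunit Psmb6 was detected in 96.4% of cluster 9, 92.1% of cluster 0, 87.3% of cluster 6 and 70.8% of cluster 2. Psmb7, the trypsin-like subunit, was detected in 91.4% of cluster 11, 87.7% of cluster 9 and 53.0% of cluster 8. Detection of all 3 cutting subunits was thus above that of the other cells in cluster 9. Among the structural subunits, Psmb1 was detected in 26.6% of cluster 4 against 92.8% outside, and in 91.7% of both clusters 2 and 8, slightly above the other cells. Psmb2 ranged from 20.7% in cluster 4 to 97.6% in cluster 5. Psmb3 was listed in 5 clusters, with 97.7% in cluster 11 and 79.4% in cluster 2.

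Psmb8 (chromosome 17, 34197721 to 34201454, plus strand) replaces Psmb5 in the immunoproteasome, which shapes peptides for antigen presentation. It was found in 8.9% of cluster 2 cells against 26.0% outside, in 1.0% of cluster 4 against 26.3%, and in 3.9% of cluster 10 against 24.6%. Over the 9 clusters with no entry its detection averaged 30.1%. Psmb8 was therefore low in cluster 2, where the beta ring genes that it can stand beside differed by -7.8 to 6.0 points. Psmb9 and Psmb10, the other inducible subunits, had no entry.

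The ATPases Psmc5 and Psmc2 had the most entries of the cap motor. Psmc5 was detected in 91.2% of cluster 5, 90.6% of cluster 9, 84.2% of cluster 0, 60.0% of cluster 8 and 55.1% of cluster 2. Its detection was 14.9% in cluster 10 and 11.8% in cluster 4. Psmc2 was detected in 86.6% and 87.8% of clusters 5 and 9, in 50.4% of cluster 2, and in 11.4% and 11.5% of clusters 10 and 4. In cluster 2 both were called lower, as were 2 of the 5 non-ATPase subunits listed, against 34.5% of all its entries. No alpha ring gene and no beta ring gene other than the inducible Psmb8 was called lower there. Median detection outside cluster 2 was 67.1% for the ATPases and 67.9% for the non-ATPase subunits listed. It was 81.8% for the alpha and 81.5% for the beta ring genes, and the part of this level in the calls was not tested. The implied mean ratios of Psmc2 and Psmc5 there were 0.672 and 0.676, which does not reach a 1.5-fold difference. Psmc3 was the only ATPase listed in cluster 11, with 82.9% against 69.9% outside and the lowest implied mean ratio among the members there, 1.47.

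Among the non-ATPase subunits, Psmd8 was listed in 9 clusters, more than any other member. It was detected in 97.4% of cluster 5, 96.5% of cluster 0, 96.2% of cluster 11 and 96.1% of cluster 9, and in 29.2% and 22.1% of clusters 10 and 4. Psmd7 was nearly level with the other cells in clusters 2 and 8, with differences of -0.1 and 0.3 points, and was detected in 19.2% of cluster 4 against 85.7%. Psmd4, a ubiquitin receptor, was listed for cluster 11 only, with 96.0% against 76.8%. Psmd12 was detected in 95.0% of cluster 11 and 92.1% of cluster 9.

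The activators had 5 entries, and the widest differences among the members listed in cluster 11 were those of Psme4 and Psme2. Psme4 (chromosome 11, 30771726 to 30880361, plus strand), which encodes the activator PA200, was found in 81.5% of cluster 11 cells and 41.2% of the others, and was listed nowhere else. Psme2 (chromosome 14, 55587441 to 55591113, minus strand), a subunit of the interferon-responsive PA28 activator, was detected in 90.8% of cluster 11 against 51.9%, and in 55.0% of cluster 6 against 52.3%. Psme2b, a near copy of Psme2, had no entry, and whether the pair shares reads was not tested. Psme1, the partner of Psme2 in PA28, had no entry in cluster 11. It was detected in 59.1% of cluster 7 against 46.9%, and in 47.7% of the cells both in and outside cluster 6.

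Psmc3ip, which is no subunit, had the largest positive difference. It was detected in 51.5% of cluster 5 against 9.7% outside, and in 43.9% of cluster 6 against 10.9%. Over the 10 clusters without an entry its detection averaged 6.64%.

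**Figure D3:**
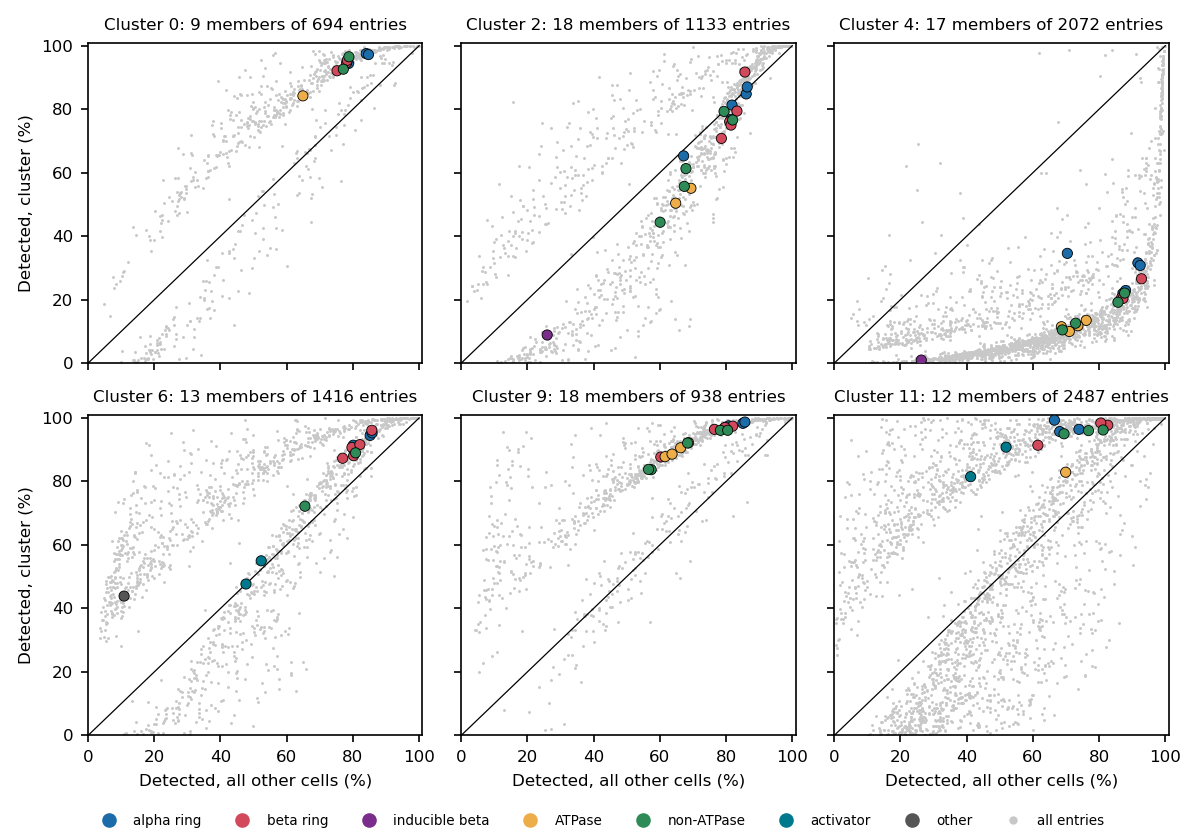
Percent of cells with a gene detected in the cluster (y axis) against all other cells (x axis) for 6 clusters, with members coloured by class, all entries in grey and equal detection as a line. The 18 members of cluster 9 lie above the line, while 12 of the 13 members of cluster 6 lie close to it, in the lower band of points.

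Values just inside the limit of 10 points were 10.4 points for Psmb1 and Psmb6 in cluster 6, followed there by Psmb2, detected in 90.7% of cells against 79.7%. Just outside were Psmb3 and Psma7 in cluster 6, both at 9.5 points, and Psmb7 in cluster 8, at -9.5 points.

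Genes that assemble, feed or regulate the proteasome were read from a separate list. Of 14 further subunits and assembly genes, 7 were listed in some cluster and 1 in cluster 11. That gene was Psmg1, an assembly chaperone of the alpha ring, detected in 76.8% of cluster 11 against 35.5% of the other cells. The deubiquitinases Usp14 and Uchl5, which act on the cap, were listed in clusters 5 and 9 only, Usp14 with 82.2% and 83.1% and Uchl5 with 60.4% and 60.2%. Of 8 shuttle and p97 genes, 3 were listed, and Ubqln1, which carries ubiquitin-tagged proteins to the cap, was detected in 87.1% of cluster 11 against 41.6%.

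Of 7 regulators, 4 were listed. Nfe2l1 had no entry in cluster 11 and was found in 84.1% of cluster 1 cells, against 65.3% outside, and no member was listed for that cluster. In cluster 2, where 5 of 18 members were called lower, it was found in 57.7% against 69.4%, and in cluster 6 in 71.1% against 67.7%. Nfe2l2 was detected in 74.3% of cluster 11 against 66.3%. Of 7 ubiquitin and conjugation genes, 6 were listed in some cluster.

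Because Psmb8, Psme1 and Psme2 respond to interferon, 12 interferon and antigen presentation genes were set beside them. In cluster 11, 6 were listed, of which 3 were called lower. Isg15, Bst2 and Ifitm3, which interferon induces, were detected in 2.2%, 35.1% and 53.8% of cluster 11, against 21.9%, 56.4% and 90.1%. In cluster 2, where Psmb8 was low, Isg15 was detected in 3.4% against 24.1% and Bst2 in 31.7% against 59.4%. None of the 8 immune, 4 endothelial or 4 glial markers was listed in any cluster.

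Other large complexes were compared by their median implied mean ratio. In cluster 11, the 12 members reached 2.53, 4 subunits of the chaperonin CCT, which folds proteins, 2.48, 75 respiratory chain genes 3.07 and 41 ribosomal protein genes 1.89. In cluster 2 the members were at 0.853, CCT at 1.08, the respiratory chain at 1.1 and ribosomal proteins at 1.92. In cluster 4 the members and CCT were at 0.111 and 0.118, and the respiratory chain and ribosomal proteins at 0.283 and 0.426. In clusters 2, 4, 5, 9 and 11 the members lay nearer to the chaperonin than to the ribosomal proteins, but not in cluster 0, where the members were at 1.9, the chaperonin at 1.81 and the ribosomal proteins at 1.93. These medians cover only the genes listed in each cluster and were not tested.

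**Figure D4:**
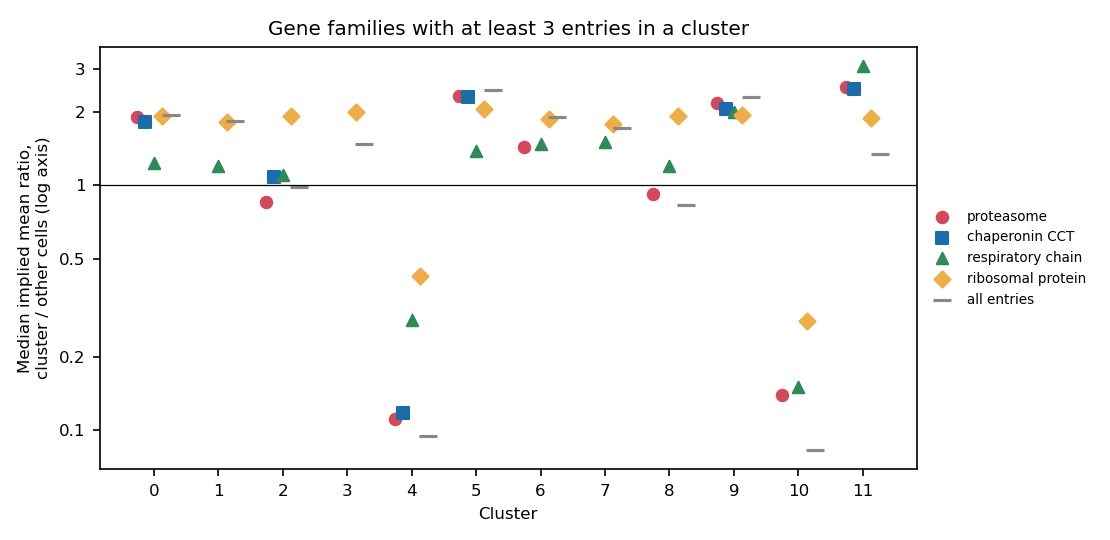
Median implied mean ratio, cluster over all other cells (log axis), for 4 gene families and for all entries in each cluster with at least 3 entries of the family. In cluster 4 the proteasome genes lie at 0.111, close to all entries at 0.095, and in cluster 11 at 2.53, above all entries at 1.34.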

How the data were processed

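Preadipocytes of WT and DKO mice were profiled by droplet single-cell RNA sequencing with a 3′ chemistry, with groups taken from the labels. According to the methods of the study, reads were mapped by the authors to mm10 with Cell Ranger 6.0.0 and captures were aggregated at equalized depth. In Seurat, cells under 500 genes or over 10% mitochondrial expression were removed and the rest log-normalized. Endothelial, glial and immune cells were left out, clusters were formed at resolution 0.6, and each was tested against the remaining cells with MAST. A gene is listed only past a minimum detection of 0.1 and a log fold change of 0.25, so a missing entry is not 0. No doublet removal is stated, and none was possible here.

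The values used are the fraction of cells with a gene detected, inside and outside each cluster, as deposited by the authors. Depth and cell number are unknown, so no interval or floor is given. Cluster shares were solved by least squares from the 10 genes listed in all 12 clusters, and detection over all cells follows from them. The solver was checked on simulated data. Scripts ran in Python 3.11.15 with pandas 2.3.3, numpy 2.4.6, matplotlib 3.10.9 and scipy 1.17.1. Gene positions are from the GRCm38 annotation (GENCODE).

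The table also holds the authors' own test of every cluster, as fold changes, p-values and adjusted p-values. No printed value, count or call comes from these columns. The fold changes of the members were nevertheless viewed after the calls had been set. For some clusters their signs ran against the detection difference, and the statements on RNA captured per cell were added for that reason. A line separating the bands of entries by detection alone was then tried in 2 forms, both scored against those signs. The first failed over parts of several clusters. The second followed the signs of the members it could be applied to but failed in clusters 3 and 7, and its shape had been read off those signs. Both were dropped, also because the scoring drew on columns not to be used, and the calls stayed as set.

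The members, gene lists and limits were chosen with earlier results of these data known. Named genes are the 2 members of each class with the most entries, the 3 largest differences each way, all members in cluster 11, and Psmb5 to Psmb10 and Psme1 to Psme4 where listed. Psma1 in cluster 4, and Psmd11, Psmd13 and Psmd14, were named after their values had been seen. Alternatives were limits of 5 and 20 points, the implied mean ratio at 1.5-fold, leaving out Psmc3ip, a minimum detection of 25% and other genes for the shares. Some listed pathway genes are not reported here.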

Additional observations from a re-analysis of the deposited data

How the results depend on the processing

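Of 32 alternatives, not counting those added later, 28 left the counts of called members within 1.5 times, or the median detection within the spread over members. Detection ran from 13.4% to 86.5% over members, so the criterion for the median is a weak one. With a limit of 5 points, 11 members were called higher in cluster 6. With 20 points, 22 entries were called higher over all clusters, 7 members in cluster 11 and 1 in cluster 6. Leaving out clusters 4 and 10, chosen after seeing the data, left 6 entries called lower over all clusters, so most lower calls come from those clusters. Limiting the members to those in at least 3 clusters gave a median detection of 79.3%, against 68.5% for all members. No alternative adjusts for RNA captured per cell, so the direction of a depth-adjusted level is not given, in particular for clusters 2, 4, 6, 8, 10 and 11. No paired analysis was possible because cells of all samples were pooled, and for the same reason no replicate could be left out.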
